A study of Homo sapiens with 16 samples.

Results

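The genes that encode histones, the proteins around which DNA is wound, were followed in 2 melanoma cell lines resistant to BRAF inhibitors (BRAFi-R). They were taken as the protein-coding genes whose current symbol is that of an H1, H2A, H2B, H3, H4 or macroH2A gene. Of 85 such genes in the GENCODE 44 annotation, 74 had a row among the 34228 genes of the count table. The other 11 were not analysed here. The 74 genes were split by position alone into 60 clustered genes, 50 on chromosome 6 and 10 on chromosome 1, and 14 genes outside the clusters.

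The study asked how inhibition of the CoREST complex changes resistant melanoma cells. Corin is a bivalent inhibitor of this complex that blocks its histone deacetylases (HDAC1 and HDAC2) and its demethylase LSD1. The 8 libraries used here came from 451Lu-R and 1205Lu-R cells that had received DMSO (the vehicle) or 2.5 μM corin for 24 h, with 2 libraries per group. Both lines had been made resistant by culture in rising doses of the BRAF inhibitor PLX4032 and were maintained in 5 μM PLX4032. As the study describes the groups, neither the DMSO nor the corin treatment included PLX4032. Each resistant line is a single derived culture, and nothing states that the 2 libraries of a group came from separate cultures, so the p-values measure only the spread between these libraries, which may be technical.

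Libraries held between 9516687 and 11797788 estimated counts. Levels are given as CPM, counts scaled to a common library total with TMM factors over all 8 libraries. Marker genes matched the lines as the study describes them. Summed melanocyte lineage markers stood at 13040 CPM in 451Lu-R (MITFhi/AXLlo) under DMSO and at 8.74 CPM in 1205Lu-R (MITFlo/AXLhi), where SOX10 was at 0 in all 4 libraries. Under corin the 4 dedifferentiation markers AXL, NGFR, EGFR and WNT5A summed to 389 CPM in 451Lu-R, against 7.66 CPM under DMSO, of which NGFR alone made up 368 and 360 CPM in the 2 corin libraries. In 1205Lu-R the same sum was 1305 CPM under DMSO and 790 CPM under corin, where NGFR stood higher and the other 3 lower. 

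A nucleosome holds pairs of the 4 core histones H2A, H2B, H3 and H4, and an H1 linker histone sits where the DNA enters and leaves. Most histone genes stand in clusters and are transcribed in S phase, when DNA is copied. Their RNAs have no introns and end in a stem-loop that is bound by SLBP, in place of the poly(A) tail of other messenger RNAs. Histone genes outside the clusters mostly encode variants such as H3.3, H2A.Z, macroH2A and H1.10, which are made through the cell cycle from ordinary polyadenylated RNAs. The libraries were labelled as polyA RNA, so RNAs of clustered genes are captured only where they carry a tail or are carried over.

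The stem-loop was found in the annotated coding transcripts of all 60 clustered genes and in 3 of the 14 others (H2AX, H3-7 and H4C16), against 0.634% of 19702 protein-coding genes. It is shown because it marks the end that a library made from polyadenylated RNA should miss. The sequences are those of GRCh38, 5′ to 3′ on the strand of the gene, with the loop in capitals and the paired stem in lower case. H2BC5 and H1-2 lie on chromosome 6, at chr6:26158587-26158602 (plus strand) and chr6:26055744-26055759 (minus strand). H2BC21 and H4C14 lie on chromosome 1, at chr1:149886188-149886203 (minus strand) and chr1:149833032-149833047 (plus strand), and H2AX lies on chromosome 11, at chr11:119094898-119094913 (minus strand).
H2BC5: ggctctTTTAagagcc
H1-2: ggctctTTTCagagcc
H2BC21: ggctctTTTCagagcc
H4C14: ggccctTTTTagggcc
H2AX: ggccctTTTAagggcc
Among the clustered genes, 15 also had an annotated transcript that ran more than 100 bases past the stem-loop, H2BC5, H2BC21 and H4C14 included and H1-2 not.

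The clustered genes as a whole were low in these libraries and stood higher under corin in both lines. Their summed level in 451Lu-R was 120.8 and 117.5 CPM under DMSO and 216.6 and 233 CPM under corin. 1205Lu-R had 38.1 and 37.6 CPM under DMSO and 126.8 and 127.4 CPM under corin. Both corin libraries of each line stood above both DMSO libraries, and the log2 fold of the group means was 0.92 in 451Lu-R and 1.75 in 1205Lu-R. Over the replicate pairings the standard deviation of this log2 fold was 0.065 and 0.012. The sum does not depend on the filter or on the split of reads between the clustered copies H4C14 and H4C15, but a score over chosen genes was given no test. Clustered genes took from 0.00363% to 0.0225% of all counts of a library, so all their values rest on few reads.

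The 14 genes outside the clusters summed to far more and moved little in total. They stood at 1707 and 1701 CPM under DMSO and 1713 and 1707 CPM under corin in 451Lu-R, and at 3470 and 3417 CPM under DMSO and 3429 and 3423 CPM under corin in 1205Lu-R. The log2 fold was 0.005 and -0.007. With library size in place of TMM it became -0.12 and 0.08, while that of the clustered genes was 0.79 and 1.84.

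**Figure D1:**
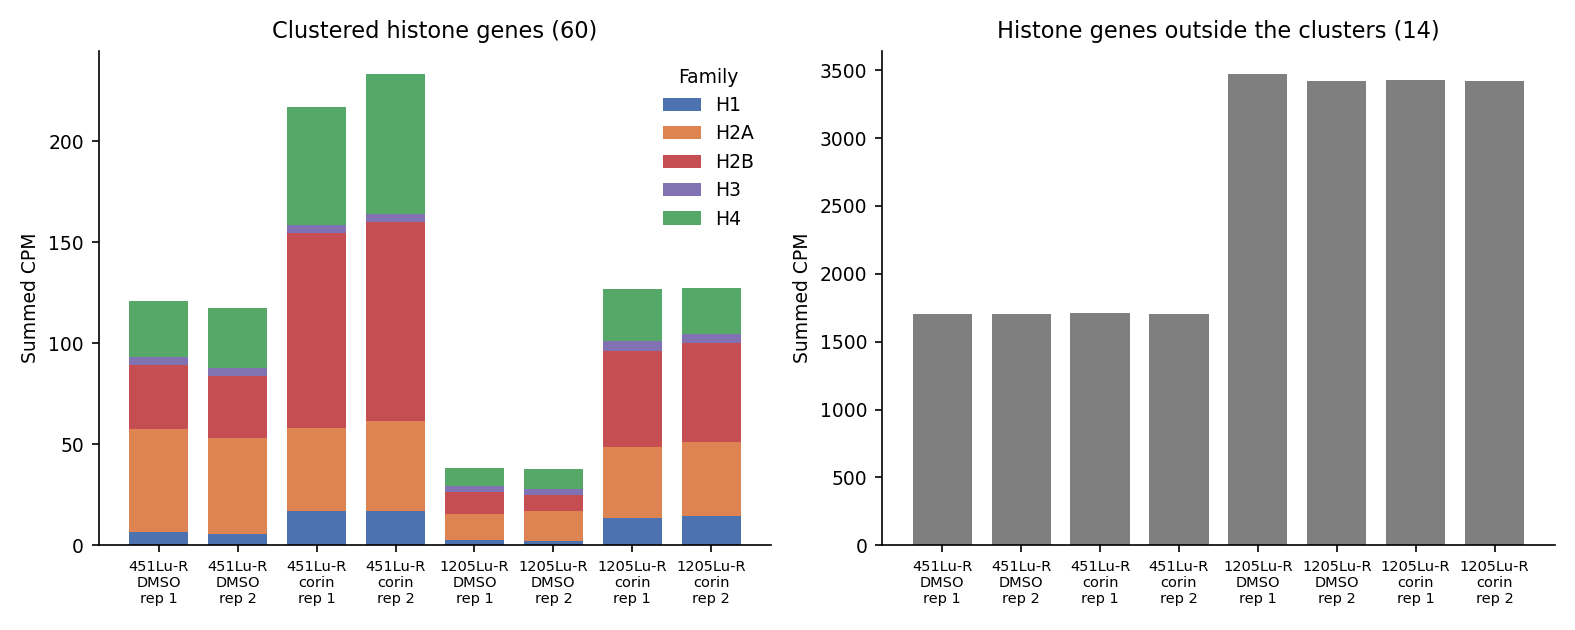
Summed CPM (vertical axis) of the 60 clustered histone genes, stacked by family, and of the 14 genes outside the clusters in each of the 8 libraries (horizontal axis). The corin libraries exceed the DMSO libraries of the same line for the clustered genes, with H2B as the largest part of the gain in both lines, followed by H4 in 451Lu-R and H2A in 1205Lu-R, and the bars of the other genes differ between lines rather than between treatments.

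By family, H2B made up the largest part of the gain under corin in both lines, followed by H4 in 451Lu-R and by H2A in 1205Lu-R. Clustered H2B genes summed to 31.7 and 31.1 CPM under DMSO and 96.2 and 98.7 CPM under corin in 451Lu-R, and to 10.6 and 8.18 CPM under DMSO and 47.5 and 48.8 CPM under corin in 1205Lu-R. The log2 folds of H2B were 1.64 and 2.36, those of H1 were 1.497 and 2.52 and those of H4 were 1.14 and 1.39. Clustered H2A genes went from 51.4 and 47.3 to 41.3 and 44.3 CPM in 451Lu-R and from 13.2 and 14.5 to 35.0 and 37.0 CPM in 1205Lu-R, so that their groups did not overlap in either line. The lower sum in 451Lu-R rested on 1 gene, H2AC6. The other 13 H2A genes of the clusters stood at 15.9 and 15.1 CPM under DMSO and 16.04 and 19.25 CPM under corin in that line. Clustered H3 genes were at 2.82 and 3.12 CPM under DMSO and 5.25 and 4.54 CPM under corin in 1205Lu-R, with no overlap and a log2 fold of 0.72 (0.81 with library size). In 451Lu-R their log2 fold was 0.11 with TMM and -0.02 with library size, so no direction is given there.

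Single genes were tested with edgeR's quasi-likelihood test with Benjamini-Hochberg adjustment over all genes that passed the filter on low counts. In 451Lu-R 21 of the 60 clustered genes passed this filter. At an adjusted p under 0.05, 11 of them rose, against 41.3% of all genes tested, and 3 fell, against 38.6%. At the limits of the study (at least 4-fold with an FDR below 0.001) 5 rose (background 12.4%) and none fell (background 2.72%). All 5 were H2B genes, and 2 of them (H2BC6 and H2BC18) passed the filter only through their corin libraries. The median log2 fold change was 0.57 over the 21 genes, where that of all genes tested was 0.03, and 0.21 over the 55 clustered genes fitted without a filter.

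In 1205Lu-R 19 of the 60 clustered genes passed the filter. At an adjusted p under 0.05, 16 rose (background 40.4%) and none fell (background 37.8%), and at the study's limits 11 rose (background 11.3%) and none fell (background 1.43%). The median log2 fold change was 2.52 over the 19 genes, against 0.03 over all genes tested, and 1.09 over the 53 fitted without a filter. These counts are not support on their own, since 10 of the 19 passed the filter only through their corin libraries and so had to be higher there. H1-4, H2AC11, H2BC6, H2BC8, H2BC21, H3C10, H3C14 and H4C8, named below, were among these 10. Of the 9 that passed in both groups, 6 rose at an adjusted p under 0.05 and 5 at the study's limits. In 451Lu-R 17 passed in both groups, of which 8 rose and 3 fell at an adjusted p under 0.05 and 3 rose at the study's limits.

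Without any filter, both corin libraries exceeded both DMSO libraries in 18 of the 60 clustered genes in 451Lu-R, which is 30% against 29.3% of all 34228 genes, and lay below them in 7, which is 11.7% against 21.8%. In 1205Lu-R 25 were higher, which is 41.7% against 28.7%, and 4 were lower, which is 6.67% against 21.4%. The share in 451Lu-R was thus near the background. Depth limits these shares, because 24 of the 60 clustered genes had 3 counts or fewer in every library and 27 reached 10 counts in any.

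**Figure D2:**
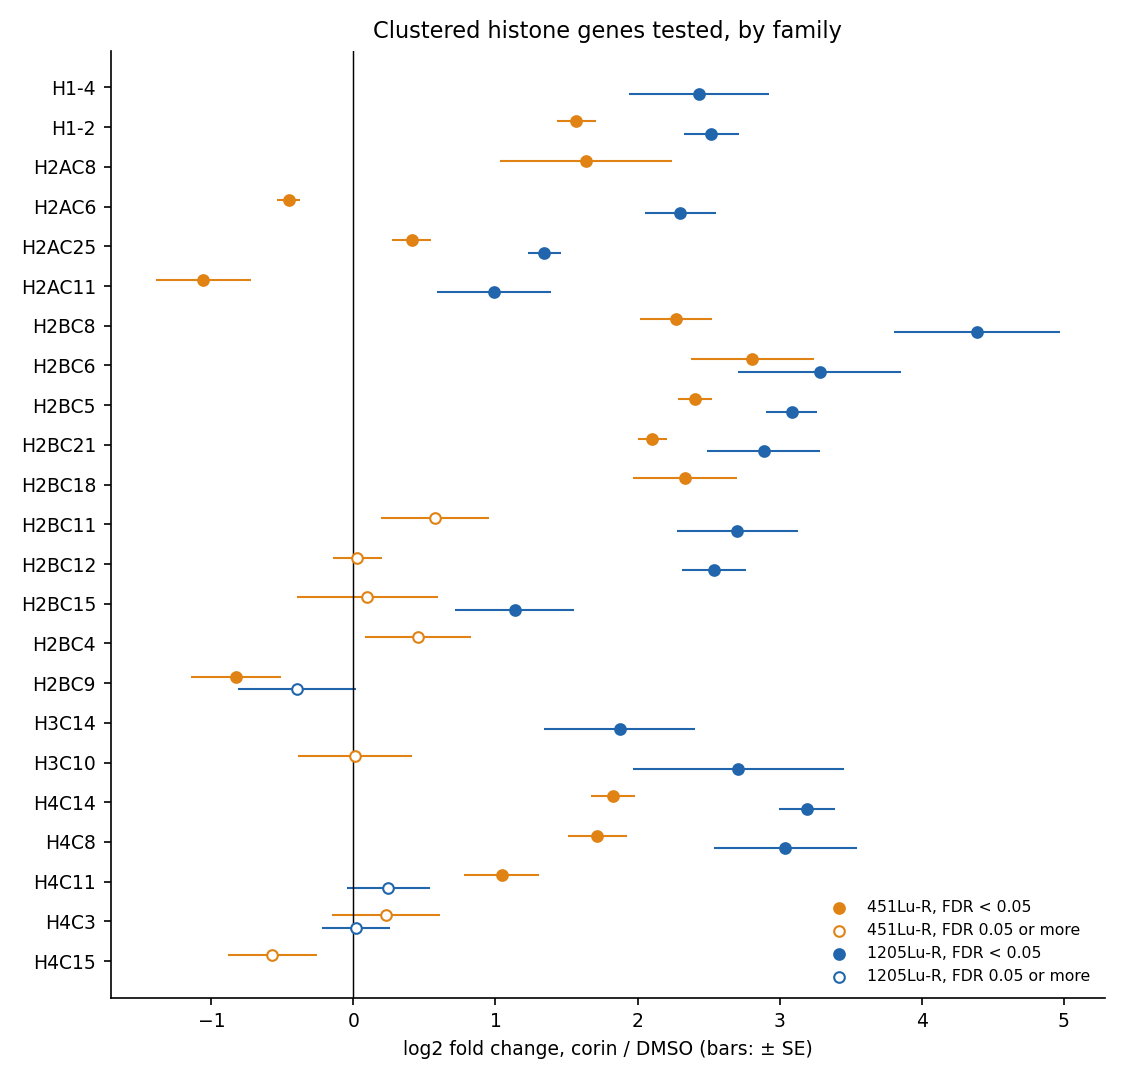
Log2 fold change of corin over DMSO (horizontal axis) with its standard error for each clustered histone gene tested in 451Lu-R (orange) or 1205Lu-R (blue), grouped by family. Filled points passed an adjusted p of 0.05. H2BC8, H2BC6, H2BC5 and H2BC21 lie above 2 in both lines, while H2AC6 and H2AC11 lie on opposite sides of 0 in the 2 lines.

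H2B, which pairs with H2A in the nucleosome, held the 4 clustered genes that rose most in 451Lu-R and 3 of the 4 that rose most in 1205Lu-R, among genes with a mean of at least 1 CPM in that line. Of these, H2BC6 in both lines, H2BC18 in 451Lu-R and H2BC8 in 1205Lu-R passed the filter only through corin libraries and so had to be higher there. H2BC5 (ENSG00000158373.8, chr6:26158122-26171349) had 5.43 and 6.43 CPM under DMSO and 30.6 and 33.0 CPM under corin in 451Lu-R. 1205Lu-R had 2.73 and 2.05 CPM under DMSO and 18.3 and 21.8 CPM under corin. The groups stood well apart in both lines. It rose by a log2 fold change of 2.40 (SE 0.12, edgeR adjusted p = 2.89e-13) in 451Lu-R and 3.08 (SE 0.18, adjusted p = 5.51e-13) in 1205Lu-R.

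H2BC21 (ENSG00000184678.10, chr1:149884459-149886682), whose longest annotated transcript runs past the stem-loop, had 8.73 and 7.95 CPM under DMSO and 36.6 and 36.7 CPM under corin in 451Lu-R. In 1205Lu-R its levels were 0.744 and 0.390 CPM under DMSO and 5.22 and 3.43 CPM under corin. Levels in 451Lu-R were higher than in 1205Lu-R under either treatment, and corin was above DMSO in both lines. The log2 fold change was 2.10 (SE 0.10, edgeR adjusted p = 1.5e-13) in 451Lu-R and 2.89 (SE 0.40, adjusted p = 8.97e-07) in 1205Lu-R. In 1205Lu-R H2BC21 passed the filter only through its corin libraries and so had to be higher there.

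H2BC8 (ENSG00000273802.2, chr6:26216200-26216688) has no annotated transcript past the stem-loop and rose as well. It held 15 and 17 counts under DMSO and 87 and 67 counts under corin in 451Lu-R, and 3 and 0 counts under DMSO and 27 and 41.1 counts under corin in 1205Lu-R. Its log2 fold change was 2.27 (SE 0.25, edgeR adjusted p = 8.65e-08) in 451Lu-R. That in 1205Lu-R was fitted at 4.39 (SE 0.58, adjusted p = 5.88e-07), a size that rests on the 3 counts seen under DMSO. H2BC6, with 4 counts or fewer in each DMSO library and from 18.9 to 32.3 counts in each corin library, had log2 fold changes of 2.81 and 3.28. H2BC18 rose in 451Lu-R, by 2.34 (SE 0.37, edgeR adjusted p = 8.2e-06) from 0.947 and 0.453 CPM to 4.16 and 3.56 CPM, and did not pass the filter in 1205Lu-R.

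Other H2B genes did not follow in 451Lu-R. H2BC12 had 7.70 and 6.67 CPM under DMSO and 6.75 and 8.31 CPM under corin in 451Lu-R, where the groups overlapped (log2 fold change 0.03, SE 0.17, edgeR adjusted p = 0.885). In 1205Lu-R it went from 1.57 and 1.89 CPM to 11.1 and 8.93 CPM and rose by 2.54 (SE 0.22, edgeR adjusted p = 9.42e-10). Its near copy H2BC12L outside the clusters, with 98.95% identical coding sequence, was listed with 26.4 counts in 1 corin library of 1205Lu-R and 0 in the other 7, so the split of reads between the pair is uncertain. H2BC9 fell in 451Lu-R, from 2.54 and 3.83 CPM to 1.85 and 1.76 CPM (log2 fold change -0.83, SE 0.31, edgeR adjusted p = 0.0216), a call that was lost with DESeq2 (adjusted p = 0.172) and when DMSO replicate 2 (0.273) or either corin replicate (0.0711 and 0.0739) was left out. In 1205Lu-R its groups overlapped.

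Many H2A and H2B promoters carry the octamer, a motif bound by the POU2F1 protein (OCT1). The octamer ATTTGCAT was searched on both strands in RefSeq promoters of GRCh38.p14, from 250 bases before to 50 after the start. It was found in 13 of 17 clustered H2B and 10 of 13 clustered H2A genes with a promoter in the table, in no clustered H1 or H4 gene, and in 2.19% of all 27305 genes. The promoters of 4 H2B genes are shown because H2BC21 and H2BC8 rose in both lines and hold the octamer (in capitals), H2BC9 holds it and did not rise, and H2BC5 rose in both lines without an exact match. The windows are chr1:149886633-149886932 (minus strand), chr6:26216639-26216938 (minus strand), chr6:26251364-26251663 (plus strand) and chr6:26157872-26158171 (plus strand), in the order printed.
H2BC21: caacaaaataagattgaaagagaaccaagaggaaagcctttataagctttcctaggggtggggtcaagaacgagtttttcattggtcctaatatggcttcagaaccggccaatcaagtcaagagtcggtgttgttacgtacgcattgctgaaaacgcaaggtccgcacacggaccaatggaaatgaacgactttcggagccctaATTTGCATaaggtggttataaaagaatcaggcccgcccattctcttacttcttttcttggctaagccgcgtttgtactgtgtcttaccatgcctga
H2BC8: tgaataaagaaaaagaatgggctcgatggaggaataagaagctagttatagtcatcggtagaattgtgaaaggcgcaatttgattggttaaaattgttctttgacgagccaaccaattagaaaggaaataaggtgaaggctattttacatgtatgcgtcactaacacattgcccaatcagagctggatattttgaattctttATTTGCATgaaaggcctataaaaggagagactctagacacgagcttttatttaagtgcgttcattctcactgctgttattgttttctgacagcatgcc
H2BC9: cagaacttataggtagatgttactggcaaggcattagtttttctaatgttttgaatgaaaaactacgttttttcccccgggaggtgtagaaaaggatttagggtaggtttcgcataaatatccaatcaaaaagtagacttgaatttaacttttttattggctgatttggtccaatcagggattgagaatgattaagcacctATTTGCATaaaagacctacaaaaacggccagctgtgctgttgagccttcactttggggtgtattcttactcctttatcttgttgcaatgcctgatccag
H2BC5: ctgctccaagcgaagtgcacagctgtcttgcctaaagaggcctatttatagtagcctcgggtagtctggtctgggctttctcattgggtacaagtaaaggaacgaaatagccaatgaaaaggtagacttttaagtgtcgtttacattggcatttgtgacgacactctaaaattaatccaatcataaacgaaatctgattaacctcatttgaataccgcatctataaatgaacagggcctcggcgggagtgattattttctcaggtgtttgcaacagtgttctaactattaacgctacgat
A match in these letters is a description of the window and no evidence of binding. The TATAAA and CCAAT motifs, searched the same way, were found in 34 and 48 of 55 clustered genes, against 13.99% and 39.72% of all genes.

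Of the H1 linker histones, only H1-2 and H1-4 among the 6 clustered genes had more than 3 counts in any library. H1-2 (ENSG00000187837.3, chr6:26055740-26056470) had 5.69 and 5.21 CPM under DMSO and 16.7 and 16.2 CPM under corin in 451Lu-R. 1205Lu-R had 2.16 and 2.05 CPM under DMSO and 11.7 and 12.3 CPM under corin. Treatments did not overlap in either line, and the log2 fold change was 1.57 (SE 0.14, edgeR adjusted p = 3.01e-09) and 2.52 (SE 0.19, adjusted p = 7.08e-11). H1-4 had 4 and 3 counts under DMSO and 17 and 22 counts under corin in 1205Lu-R, where it rose by 2.43 (SE 0.49, edgeR adjusted p = 0.000129), and 1 to 4 counts in the 451Lu-R libraries. In 1205Lu-R H1-4 passed the filter only through its corin libraries and so had to be higher there. H1-1, H1-3, H1-5 and H1-6 held 3 counts or fewer in all 8 libraries.

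H4 pairs with H3 at the centre of the nucleosome. H4C14 and H4C15, on chromosome 1, have identical coding sequences, and salmon's division of reads between them differed between libraries. In 451Lu-R corin replicate 2, for example, H4C14 was given 47.9 CPM and H4C15 2.60 CPM, where replicate 1 had 32.1 and 11.6 CPM. Summed, the pair stood at 21.6 and 22.0 CPM under DMSO and 43.6 and 50.5 CPM under corin in 451Lu-R, and at 2.07 and 1.37 CPM under DMSO and 14.97 and 13.88 CPM under corin in 1205Lu-R. Corin libraries were higher in both lines, and the sum rose by a log2 fold change of 1.08 (SE 0.09, edgeR adjusted p = 4.97e-10) in 451Lu-R and 3.07 (SE 0.20, adjusted p = 4.73e-12) in 1205Lu-R. As split by salmon, H4C14 alone gave 1.83 (edgeR adjusted p = 1.38e-09) and 3.19 (adjusted p = 2.13e-12), and H4C15 gave -0.57 (adjusted p = 0.101) in 451Lu-R.

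H4C8 rose from 2.54 and 2.95 CPM to 8.27 and 10.1 CPM in 451Lu-R (log2 fold change 1.72, SE 0.21, edgeR adjusted p = 2.66e-07). Its rise in 1205Lu-R was from 2 and 4 counts to 28 and 23 counts (log2 fold change 3.04, SE 0.50, edgeR adjusted p = 1.19e-05). In that line H4C8 passed the filter only through its corin libraries and so had to be higher there. H4C3, named here after its values were seen, did not pass the test in either line. It had 12 and 18 counts under DMSO and 19 and 16 under corin in 451Lu-R, and 40 and 47 under DMSO and 48 and 40 under corin in 1205Lu-R. Among the clustered genes that passed the filter, it was also the 1 that was higher in 1205Lu-R than in 451Lu-R under DMSO (log2 difference 1.56, SE 0.30, edgeR adjusted p = 5.28e-05).

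Clustered H2A genes included those that moved in opposite order in the lines. H2AC6 (ENSG00000180573.9, chr6:26124145-26139116) had the most counts of all clustered genes. It had 35.5 and 32.2 CPM under DMSO and 25.25 and 25.04 CPM under corin in 451Lu-R, and 1.13 and 2.15 CPM under DMSO and 7.69 and 8.26 CPM under corin in 1205Lu-R. The groups stood apart in both lines, in opposite order. H2AC6 fell in 451Lu-R (log2 fold change -0.45, SE 0.08, edgeR adjusted p = 3.74e-05) and rose in 1205Lu-R (log2 fold change 2.30, SE 0.25, adjusted p = 3.2e-08). Without H2AC6 the log2 fold of the summed clustered genes was 1.23 in 451Lu-R and 1.72 in 1205Lu-R. Its exons overlap those of another annotated gene on the same strand, and reads from the 2 genes cannot be told apart here.

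H2AC11 showed the same opposite order, from 2.47 and 3.26 CPM to 1.52 and 1.26 CPM in 451Lu-R (log2 fold change -1.06, SE 0.33, edgeR adjusted p = 0.00722). In 1205Lu-R it went from 1.30 and 0.679 CPM to 1.85 and 2.09 CPM (0.99, SE 0.40, edgeR adjusted p = 0.0293), but passed the filter only through its corin libraries and so had to be higher there. Both calls were lost with DESeq2 (adjusted p = 0.103 and 0.197) and when some single libraries were left out. That in 451Lu-R was lost without DMSO replicate 2 (0.0893) or corin replicate 2 (0.057), and that in 1205Lu-R without DMSO replicate 2 (0.302), corin replicate 1 (0.0755) or corin replicate 2 (0.187). H2AC25, on chromosome 1, had 10.9 and 10.2 CPM under DMSO and 12.8 and 15.9 CPM under corin in 451Lu-R (log2 fold change 0.41, SE 0.13, edgeR adjusted p = 0.00936), a call lost without corin replicate 2 (0.145) and with DESeq2 (0.109). The rise in 1205Lu-R was from 9.02 and 10.3 CPM to 23.9 and 24.7 CPM (log2 fold change 1.34, SE 0.12, edgeR adjusted p = 5.36e-10).

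Clustered H3 genes were near the limit of detection. H3C10 had 13, 14, 17 and 10 counts in the DMSO and corin libraries of 451Lu-R, with overlapping groups, and 3, 0, 10 and 11 counts in those of 1205Lu-R. Its log2 fold change in 1205Lu-R was 2.71 (SE 0.74, edgeR adjusted p = 0.00231), and the call was lost without DMSO replicate 2 (adjusted p = 0.0770). H3C14 had 6 and 2 counts under DMSO and 15 and 15 under corin in 1205Lu-R (log2 fold change 1.88, SE 0.53, edgeR adjusted p = 0.00299), and its call was lost without DMSO replicate 2 (0.0891). H3C10 and H3C14 passed the filter in 1205Lu-R only through their corin libraries and so had to be higher there. H3C14 shares its coding sequence with H3C15, one of the genes not analysed here. H3C6 had from 1 to 10.1 counts per library and did not pass the filter within either line. H3C12, named here after its values were seen, did not pass the filter in any comparison of all libraries. It had 0 counts in both DMSO libraries of 451Lu-R and 10 and 15 counts in those of 1205Lu-R, where the corin libraries held 4 and 2.2.

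**Figure D3:**
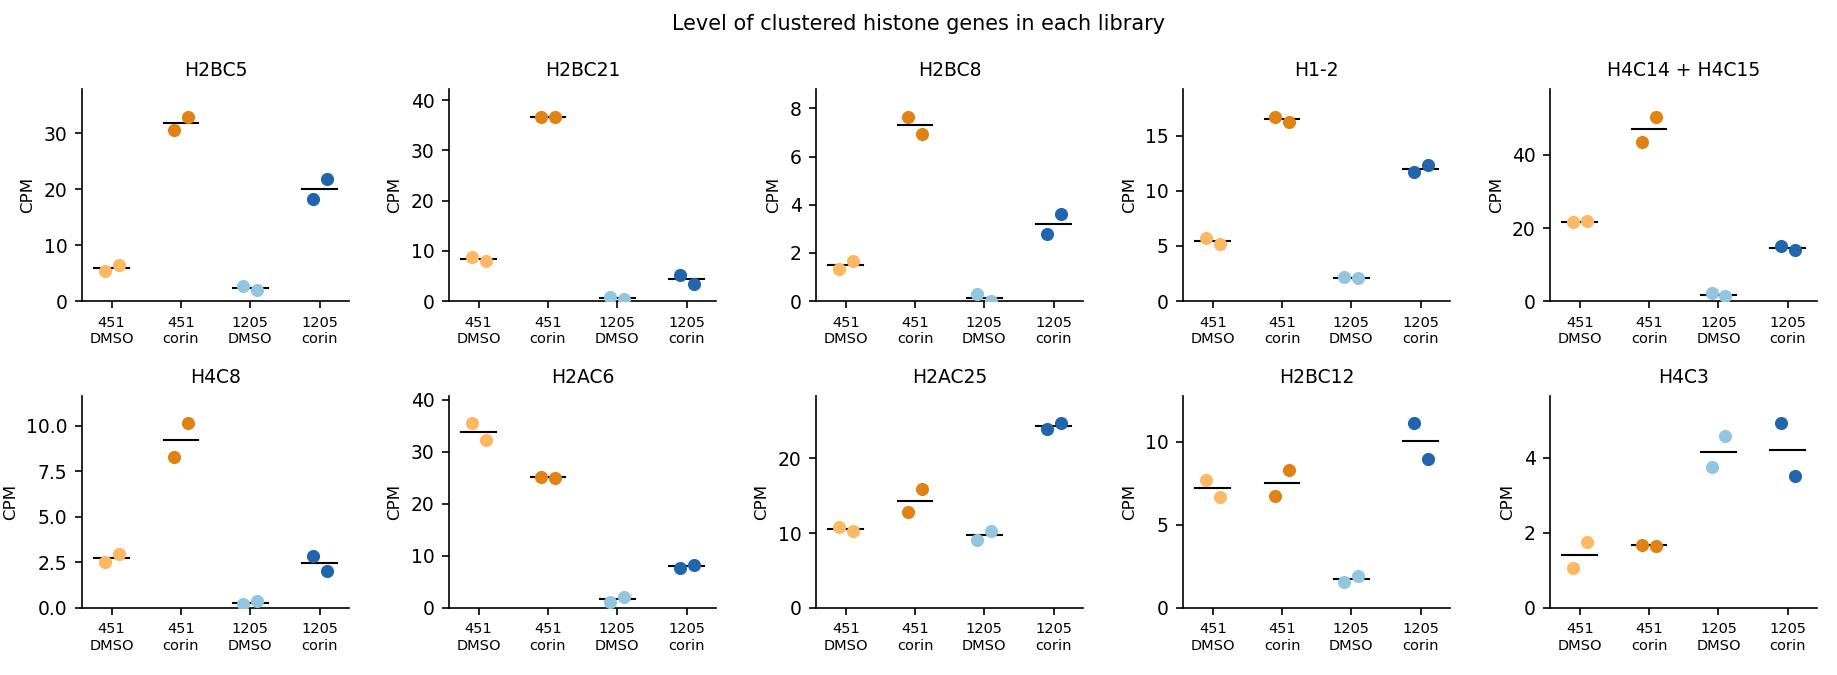
CPM (vertical axis, from 0) of clustered histone genes in each library, with the 2 libraries of each group as points and their mean as a line. H2BC5, H2BC21, H2BC8, H1-2, the summed pair H4C14 and H4C15, and H4C8 stand higher under corin in both lines, H2AC6 moves in opposite order, H2BC12 differs between treatments only in 1205Lu-R, and the groups of H4C3 overlap in both lines.

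Summed levels under corin were higher for clustered genes with and without an annotated longer transcript. The 15 genes with a transcript past the stem-loop summed to 92.2 and 88.1 CPM under DMSO and 171.9 and 184.8 CPM under corin in 451Lu-R, and to 19.0 and 19.4 CPM under DMSO and 83.5 and 85.3 CPM under corin in 1205Lu-R. The 45 other genes summed to 28.6 and 29.4 CPM under DMSO and 44.8 and 48.2 CPM under corin in 451Lu-R, and to 19.1 and 18.2 CPM under DMSO and 43.3 and 42.1 CPM under corin in 1205Lu-R. In both sets the corin libraries stood above the DMSO libraries. The log2 folds were 0.98 and 2.14 with such a transcript and 0.68 and 1.19 without. By single genes without any filter the shares differed. Both corin libraries exceeded both DMSO libraries in 66.7% (451Lu-R) and 86.7% (1205Lu-R) of the 15 genes, and lay below them in 13.3% and 0%. Of the 45 others 17.8% and 26.7% were higher, under the 29.3% and 28.7% of all genes, and 11.1% and 8.89% were lower. All 24 clustered genes with 3 counts or fewer in every library were among these 45, so depth limits this contrast. In 451Lu-R 7 of 13 tested genes with such a transcript rose at an edgeR adjusted p under 0.05, and 4 of 8 without (background 41.3%). Their medians were 0.57 and 0.64. In 1205Lu-R 10 of 10 and 6 of 9 rose (background 40.4%), with medians of 2.80 and 1.88, but 10 of the genes tested there passed only through corin libraries. H1-2 and H2BC8 made up most of the gain of the 45 genes in 451Lu-R. Whether the extra reads came from the longer transcripts was not tested, since the counts are per gene.

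The summed level of other RNAs that lack a poly(A) tail did not move with the clustered genes in both lines. The 20 such RNAs with a row in the table (of 26 listed) summed to 62.5 and 73.0 CPM under DMSO and 78.6 and 77.8 CPM under corin in 451Lu-R. In 1205Lu-R they summed to 140.2 and 157.6 CPM under DMSO and 115.5 and 117.2 CPM under corin. Most of this sum was RN7SL1 and RN7SL2, so it does not stand for each of these RNAs. In 1205Lu-R the log2 fold change was -0.36 for RN7SL1 and -0.43 for RN7SL2 (edgeR adjusted p = 2.07e-05 and 1.82e-06). SNORD3A went the other way there, by 1.64 (edgeR adjusted p = 0.00256). In 451Lu-R RN7SL1 rose by 0.24 (edgeR adjusted p = 0.0243). The part of carry-over of untailed RNA in the levels of the clustered genes was not tested.

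Genes outside the clusters were tested in 11 of 14 cases in 451Lu-R and 10 in 1205Lu-R. In 451Lu-R 6 rose (background 41.3%) and 3 fell (background 38.6%) at an adjusted p under 0.05, and in 1205Lu-R 4 rose (background 40.4%) and 6 fell (background 37.8%). None passed the study's limits in either line. Their median log2 fold change was 0.24 and -0.14. Levels per kilobase of the longest coding transcript placed H2AZ1 first among all members under DMSO, at 605 CPM per kb in 451Lu-R and 530 CPM per kb in 1205Lu-R. H3-3B followed at 194 and 345 CPM per kb, while the clustered genes reached at most 27.7 CPM per kb under DMSO (H4C14 in 451Lu-R).

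H2A.Z, a variant found around promoters, is made from 2 genes. H2AZ1 had 522 and 528 CPM under DMSO and 300 and 300 CPM under corin in 451Lu-R, and 464 and 456 CPM under DMSO and 372 and 374 CPM under corin in 1205Lu-R. It fell in both lines with no overlap, with log2 fold changes of -0.83 (SE 0.02, edgeR adjusted p = 6.81e-17) and -0.29 (SE 0.03, adjusted p = 6.24e-09). H2AZ2 had 95.0 and 92.6 CPM under DMSO and 111 and 114 CPM under corin in 451Lu-R, and 528 and 518 CPM under DMSO and 456 and 455 CPM under corin in 1205Lu-R. It rose in 451Lu-R by 0.24 (SE 0.04, edgeR adjusted p = 4.53e-05) and, in 1205Lu-R, fell (log2 fold change -0.18, SE 0.03, adjusted p = 2.93e-06).

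MacroH2A, a large H2A variant of repressed chromatin, also has 2 genes. MACROH2A1 had 166 and 162 CPM under DMSO and 97.0 and 94.9 CPM under corin in 451Lu-R, and 214 and 226 CPM under DMSO and 145 and 139 CPM under corin in 1205Lu-R. It fell in both lines, with log2 fold changes of -0.79 (SE 0.04, edgeR adjusted p = 2.11e-13) and -0.62 (SE 0.04, adjusted p = 2.37e-12). MACROH2A2 had 70 and 77 counts under DMSO and 47 and 45 counts under corin in 1205Lu-R (log2 fold change -0.68, SE 0.19, edgeR adjusted p = 0.00325; DESeq2 adjusted p = 0.082). In 451Lu-R it had 0 counts in both DMSO libraries and 4 in each corin library.

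H3.3, the variant of H3 laid down outside S phase, is made from H3-3A and H3-3B. H3-3A had 206 and 216 CPM under DMSO and 168 and 172 CPM under corin in 451Lu-R, and 226 and 197 CPM under DMSO and 164 and 165 CPM under corin in 1205Lu-R. It fell too, with log2 fold changes of -0.34 (SE 0.03, edgeR adjusted p = 2.54e-08) and -0.36 (SE 0.05, adjusted p = 3.93e-07). H3-3B had 529 and 520 CPM under DMSO and 763 and 754 CPM under corin in 451Lu-R, and 933 and 934 CPM under DMSO and 861 and 874 CPM under corin in 1205Lu-R. It rose by 0.51 (SE 0.02, edgeR adjusted p = 1.42e-14) in 451Lu-R. Its log2 fold change in 1205Lu-R was -0.09 (SE 0.02, adjusted p = 0.000734), a call that was lost with library size in place of TMM (-0.02, adjusted p = 0.551). H3-7, an H3 gene on chromosome 1 outside the clusters, rose in 1205Lu-R, from 13.8 and 11.97 CPM to 20.5 and 23.7 CPM (log2 fold change 0.80, SE 0.11, edgeR adjusted p = 1.99e-06), and its groups overlapped in 451Lu-R. The exons of H3-7 overlap those of other annotated genes on the same strand, and reads from these genes cannot be told apart here.

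The linker histone gene H1-10, outside the clusters, rose in both lines. H1-10 had 67.0 and 63.9 CPM under DMSO and 125 and 124 CPM under corin in 451Lu-R, and 367 and 343 CPM under DMSO and 396 and 392 CPM under corin in 1205Lu-R. The log2 fold change was 0.91 (SE 0.05, edgeR adjusted p = 3.78e-13) and 0.17 (SE 0.03, adjusted p = 7.52e-05).

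H2AX, the H2A variant phosphorylated at DNA breaks, had 80.2 and 80.7 CPM under DMSO and 76.6 and 77.5 CPM under corin in 451Lu-R. The log2 fold change was -0.09 (SE 0.05, edgeR adjusted p = 0.114), and with library size in place of TMM it was called at -0.18 (edgeR adjusted p = 0.00189). A rise in 1205Lu-R took it from 227 and 240 CPM to 371 and 360 CPM, by 0.66 (SE 0.03, edgeR adjusted p = 6.35e-14). H2AJ and H4C16, neighbours on chromosome 12, were detected in 451Lu-R and nearly absent from 1205Lu-R. H2AJ rose in 451Lu-R from 23.7 and 21.3 CPM to 49.0 and 48.4 CPM (log2 fold change 1.09, SE 0.08, edgeR adjusted p = 1.01e-10) and had 0 counts in all 4 libraries of 1205Lu-R. H4C16 rose from 1.23 and 2.46 CPM to 4.22 and 5.00 CPM (log2 fold change 1.31, SE 0.30, edgeR adjusted p = 0.000576) in 451Lu-R and had 0, 0, 2 and 2 counts in 1205Lu-R.

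**Figure D4:**
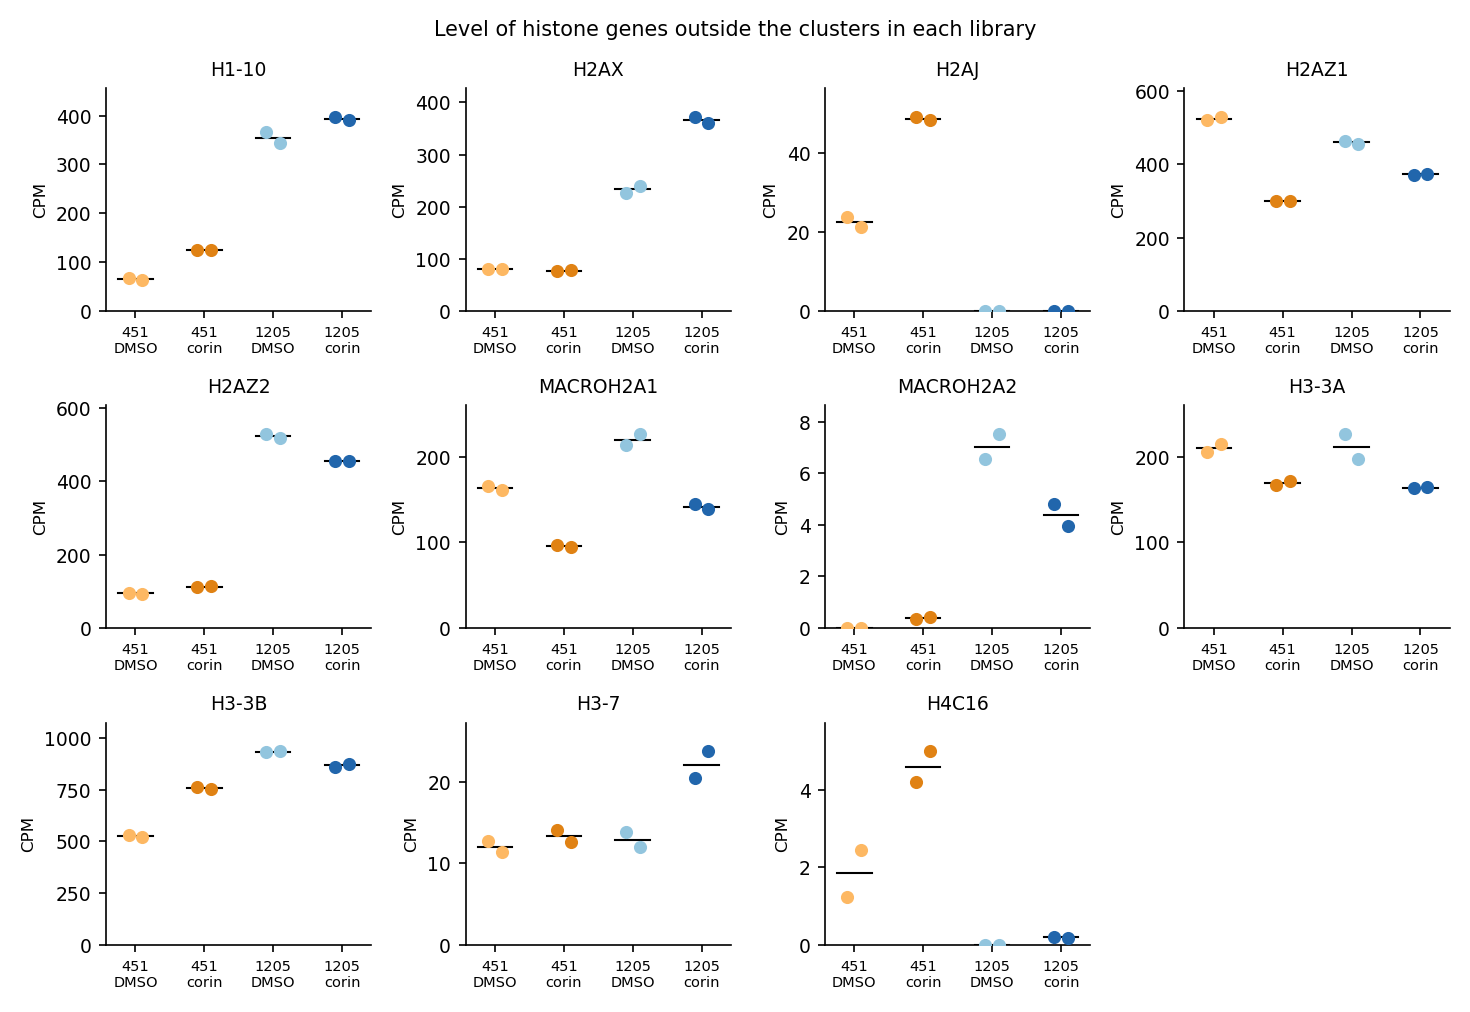
CPM (vertical axis, from 0) of 11 histone genes outside the clusters in each library, with the 2 libraries of each group as points and their mean as a line. H2AZ1, MACROH2A1 and H3-3A stand lower under corin in both lines, H1-10 stands higher, and H2AJ is at 0 in all 4 libraries of 1205Lu-R.

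Under DMSO the lines differed in both classes of histone genes. Of 17 clustered genes that passed the filter, 1 was higher in 1205Lu-R (background 41%) and 14 were lower (background 41.5%) at an adjusted p under 0.05. At the study's limits none was higher (background 10.1%) and 8 were lower (background 10.6%). Of the 17, 8 passed the filter only through 451Lu-R and so had to be lower in 1205Lu-R, while 6 of the 9 that passed in both lines were lower. H2AC6 differed by a log2 of -4.39 (SE 0.17, edgeR adjusted p = 7.47e-18) and H2BC21, which passed only through 451Lu-R, by -3.86 (SE 0.30, adjusted p = 1.22e-11). The sum of all 60 clustered genes differed by a log2 of -1.66.

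Outside the clusters 12 genes were tested. At an adjusted p under 0.05, 7 were higher (background 41%) and 3 lower (background 41.5%) in 1205Lu-R. At the study's limits 4 were higher (background 10.1%) and 2 lower (background 10.6%). MACROH2A2 passed the filter only through 1205Lu-R, and H2AJ and H4C16 only through 451Lu-R, so the direction of these genes was set by the filter. Of the 9 that passed in both lines, 6 were higher and 1 lower at an adjusted p under 0.05, and 3 were higher at the study's limits. H2AZ2 was higher in 1205Lu-R by a log2 of 2.46 (SE 0.03, edgeR adjusted p = 1.31e-27), H1-10 by 2.42 (SE 0.04, adjusted p = 3.13e-25) and H2AX by 1.52 (SE 0.04, adjusted p = 6.36e-21). MACROH2A2, at 0 counts in 451Lu-R, was at least 25.3-fold higher in 1205Lu-R against a floor of 3 counts per library. H2AJ was at least 78.4-fold lower in 1205Lu-R and H4C16 at least 6.42-fold lower, against the same floor. H3-3A did not differ by the test (log2 difference -0.01, SE 0.04, edgeR adjusted p = 0.857).

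The difference in corin response between the lines was tested with an interaction term over all 8 libraries. Of 25 clustered genes in this fit, 12 had a larger log2 fold change in 1205Lu-R (background 22.6%) and none a smaller one (background 27.1%) at an adjusted p under 0.05. The 12 became 7 without 1205Lu-R DMSO replicate 2 and 6 with DESeq2. Of 6 clustered genes that passed the filter through 1 group only, 1 was called. This was H1-4, whose call is no support on its own, since it entered only through the group where it was high. In 6 others only 1205Lu-R DMSO fell short of the filter, so corin had to be higher in that line. Of these 6, 4 were called larger (H2AC11, H2BC8, H2BC11 and H3C10), which is no support on its own either. H3C6, also called, passed through no single group. Another 9 clustered genes passed in all 4 groups, and 6 of these were larger. Outside the clusters 12 genes were in the fit, with 3 larger and 4 smaller. Among all genes 3625 were larger and 4359 smaller, a split that became 5344 and 3003 with library size in place of TMM. For H2AC6 the difference was a log2 of 2.72 (SE 0.24, edgeR adjusted p = 5.11e-09), for H2BC12 2.47 (SE 0.30, adjusted p = 4.37e-07) and for H1-2 0.91 (SE 0.25, adjusted p = 0.0044). H2BC21 (0.74, SE 0.42, adjusted p = 0.153) and H2BC6 (0.44, SE 0.86, adjusted p = 0.722) did not pass, but without 1205Lu-R corin replicate 2 the difference for H2BC21 did (1.05, adjusted p = 0.0393).

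Most genes that act in S phase fell in both lines. The backgrounds for this list and the next 2 are those given above, 41.3% higher and 38.6% lower in 451Lu-R and 40.4% higher and 37.8% lower in 1205Lu-R. Of 36 genes of DNA replication, 1 rose and 32 fell at an adjusted p under 0.05 in 451Lu-R, with a median log2 fold change of -1.23. In 1205Lu-R 2 rose and 34 fell, with a median of -1.14. CCNE2, a cyclin of the G1 to S transition, had log2 fold changes of -2.30 (SE 0.17, edgeR adjusted p = 2.49e-10) and -2.63 (SE 0.11, adjusted p = 2.37e-15). CCNA2, the cyclin of S and G2, fell by 2.15 in 451Lu-R (SE 0.08, edgeR adjusted p = 2.35e-15), and MCM5, of the replicative helicase, fell by 2.93 in 1205Lu-R (SE 0.05, adjusted p = 8.4e-22). RRM2, a subunit of ribonucleotide reductase, rose by 0.72 in 1205Lu-R (SE 0.03, edgeR adjusted p = 8.31e-17). In bulk libraries fewer cells in S phase and less RNA per cell cannot be told apart.

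Regulators of histone RNA were mostly lower as well. Of 22 genes that act in transcription or 3' end processing of histone RNA, 2 rose and 15 fell in 451Lu-R (median log2 fold change -0.66), and 3 rose and 14 fell in 1205Lu-R (median -0.49). SLBP, which binds the stem-loop, had log2 fold changes of -0.96 (SE 0.08, edgeR adjusted p = 7.77e-10) and -0.71 (SE 0.06, adjusted p = 1.23e-10). NPAT, the coactivator of the clusters, had -1.02 (SE 0.08, edgeR adjusted p = 1.13e-09) and -0.36 (SE 0.09, adjusted p = 0.000703). Both genes were named after their values were seen. CPSF2, of the cleavage complex, fell by 1.09 in 451Lu-R (SE 0.06, edgeR adjusted p = 4.14e-13), and TUT7, which adds uridines to histone RNA for its decay, rose by 0.61 (SE 0.11, adjusted p = 3.61e-05).

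Among 30 histone chaperones and exchange factors, 4 rose and 24 fell in 451Lu-R (median log2 fold change -0.60), and 3 rose and 24 fell in 1205Lu-R (median -0.66). SET had log2 fold changes of -1.51 (SE 0.03, edgeR adjusted p = 5.2e-20) and -1.46 (SE 0.03, adjusted p = 8.78e-21). IPO4, an importer of H3 and H4, fell by 1.52 in 451Lu-R (SE 0.06, edgeR adjusted p = 2.44e-15), and MMS22L, a partner of TONSL at replication forks, fell by 1.503 in 1205Lu-R (SE 0.08, adjusted p = 4.14e-13). UBN1 and CABIN1, of the complex that deposits H3.3, rose in 451Lu-R by 0.73 (SE 0.05, edgeR adjusted p = 6.27e-11) and 0.54 (SE 0.04, adjusted p = 1.85e-10). HIRA and UBN2 of the same complex, named after their values were seen, were lower under corin in that line. HIRA went from 106.5 and 106.4 to 74.0 and 77.7 CPM, and UBN2 from 20.0 and 20.1 to 14.4 and 13.5 CPM. In 1205Lu-R UBN1 (162 and 161 to 119 and 116 CPM) and HIRA were lower under corin, and UBN2 was higher. ASF1B, a carrier of H3 and H4, and CABIN1 rose in 1205Lu-R by 0.60 (SE 0.06, edgeR adjusted p = 6.76e-09) and 0.55 (SE 0.06, adjusted p = 2.99e-08).

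**Figure D5:**
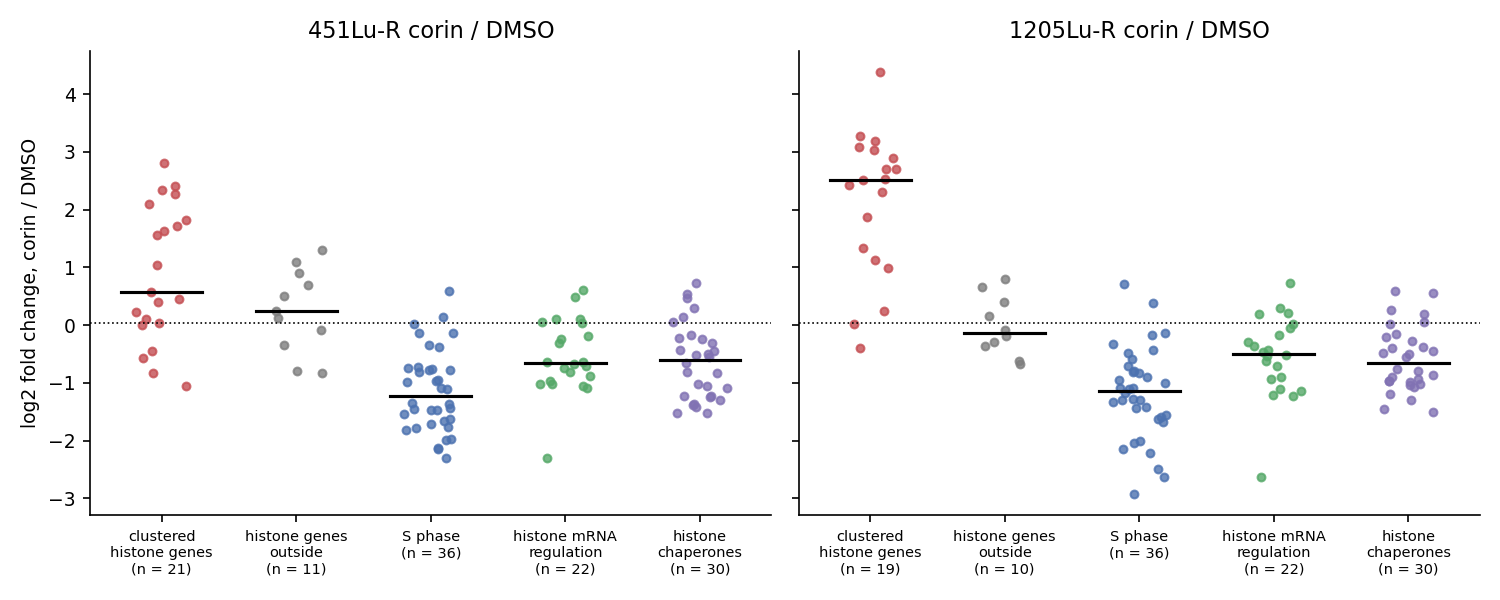
Log2 fold change of corin over DMSO (vertical axis) of every tested gene of each list, with the median as a solid line and the median of all genes tested as a dotted line, in 451Lu-R and 1205Lu-R. Clustered histone genes that passed the filter have medians of 0.57 and 2.52, while S phase genes have medians of -1.23 and -1.14.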

How the data were processed

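Reads from polyA RNA (RNeasy Plus Mini kit, NextSeq) were trimmed by the authors with Trimmomatic and quantified with Salmon against GENCODE 32 on GRCh38; versions and strand settings are not given in the sources used here. The authors deposited Salmon's estimated counts (expected counts, not normalized) per gene for 8 DMSO and corin libraries. For PLX4032 plus corin against PLX4032 they deposited their own DESeq2 log2 fold changes and adjusted p-values, which hold no replicates and were not used, so the 8 PLX4032 libraries of the 16 samples entered no comparison.

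Counts were rounded and tested with edgeR 4.0.16 in R 4.3.3 (filterByExpr with a minimum count of 10, TMM, glmQLFit and glmQLFTest, 2-sided, Benjamini-Hochberg). Each comparison used the 4 libraries it concerns; the difference between lines used an interaction term over all 8. Calls were made at a fold change of 4 and FDR under 0.001 and at FDR under 0.05. Of 34228 table IDs 34052 matched GENCODE 44, from which symbols, positions and stem-loops were taken; promoters were RefSeq GRCh38.p14. Alternatives were DESeq2 1.42.0, RLE factors or library totals in place of TMM, a filter at a mean of 1 CPM or none, a replicate block, all 8 libraries in 1 fit, a fold of 2 with FDR under 0.01, each library left out, and, added after seeing the data, H4C14 and H4C15 summed. The scripts were tested on simulated data.

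Named members were all detected genes outside the clusters, all detected clustered H1 genes, the 3 core genes per family with the highest mean CPM, and per line the 4 clustered genes with the largest rise and the 4 with the largest fall at FDR under 0.05 and a mean of 1 CPM; genes of other lists were the 2 with the largest changes in each direction, of which some are printed. The values of 1 named member are not reported here. The members and lists were chosen with earlier results of these data known.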

Additional observations from a re-analysis of the deposited data

Results flagged for a closer look

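The corin response differed between 1205Lu-R and 451Lu-R in 18 named histone genes by edgeR's interaction term (adjusted p under 0.05). In all, 19 of the 37 histone genes in the fit were called, 15 larger and 4 smaller, where 22.6% of all genes were larger and 27.1% smaller, so the share called was near the background. All values are the log2 fold change in 1205Lu-R minus that in 451Lu-R. Among clustered H2A and H2B genes the differences were 2.72 for H2AC6, 2.01 for H2AC11, 0.90 for H2AC25, 2.47 for H2BC12, 2.08 for H2BC8 and 0.64 for H2BC5. The other clustered genes were H1-2 (0.91), H1-4 (3.32), H3C10 (2.66), H3C6 (2.54) and H4C14 (1.32, or 1.95 when summed with its copy H4C15). All 11 of these lay toward a larger response in 1205Lu-R. The filter favoured this direction for H1-4, H2AC11, H2BC8 and H3C10, which in 1205Lu-R passed it only through corin libraries. Outside the clusters the difference was 0.71 for H2AX, 0.63 for H3-7 and 0.51 for H2AZ1, which fell less in 1205Lu-R. It was -0.78 for H1-10, -0.64 for H3-3B and -0.46 for H2AZ2. MACROH2A2 was fitted at -5.74, a size that depends on the prior count because both DMSO libraries of 451Lu-R were at 0.

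Some of these calls were lost under other settings. With DESeq2 the difference did not pass for H1-4 (adjusted p = 0.0938), H2BC5 (0.0996), H2BC8 (0.0745), H3C10 (0.0971) and H3C6 (0.148). The call of each of these 5 genes was also lost when some single libraries were left out, with adjusted p up to 0.171 for H1-4, 0.253 for H2BC5, 0.245 for H2BC8, 0.155 for H3C10 and 0.136 for H3C6, and without 1205Lu-R DMSO replicate 2 that of H4C14 did not pass either (adjusted p = 0.0555). H2BC8 also lost its call with the replicate block (adjusted p = 0.0511).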

How the results depend on the processing

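Counts of histone genes called stayed within 1.5 times of the reported values (5 in 451Lu-R, 11 in 1205Lu-R, 14 between the lines under DMSO and 19 for the difference in response) under the alternatives run, except that a fold change of 2 with an FDR under 0.01 called 12 in 451Lu-R. For the difference in response, called above at an adjusted p under 0.05 with no fold limit, the same rule called 6. Leaving out each library gave from 4 to 7, from 9 to 11, from 12 to 15 and from 15 to 19. With the replicate block they were 5, 11, 14 and 18. Same-numbered libraries did not deviate from their group means together (r = -0.023 for 451Lu-R, r = 0.007 for 1205Lu-R). Nothing states whether they share more than the number, such as a culture or a batch.

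The log2 fold of the summed clustered genes, 0.92 in 451Lu-R and 1.75 in 1205Lu-R, moved to 0.79 and 1.84 with library size in place of TMM and to 1.23 and 1.72 without H2AC6, the member with most counts. The medians of single clustered genes, 0.57 and 2.52, were 0.21 and 1.09 without a filter. Without the H1 genes the log2 fold of the sum was 1.68 in 1205Lu-R. Over all 60 clustered genes it ran from 0.86 to 0.97 and from 1.74 to 1.76 when single libraries were left out. Library size alone shifted the median of all genes to -0.07, 0.11, -0.12 and 0.20 in the 4 comparisons, from 0.03, 0.03, -0.01 and -0.01. The median difference in response of the genes outside the clusters turned to 0.012 with library size and ran from -0.174 to 0.039 when single libraries were left out, turning without 1205Lu-R DMSO replicate 1. The difference of H3-3A between the lines under DMSO ran from -0.107 to 0.095, turning without 1205Lu-R DMSO replicate 2 (adjusted p = 0.0363). The causes were not tested. Over the log2 fold changes of all named members under other settings, 751 values kept direction and call, 15 lost their call and 8 gained one. With single libraries left out some calls were lost as well, as given above. Depth limits the clustered genes most, since 24 of 60 held 3 counts or fewer in every library.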
